A study of Mus musculus with 170 samples.

Results

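Haematopoietic stem cells (HSCs) of old and young mice were compared across all genes. Every library of the series whose name gave the cell type as HSC and the age as old or young was used, which gave 11 of 170 libraries: 7 old and 4 young. The series measured bulk 3′ RNA-seq in 23 cell types sorted by flow cytometry, and one count table held every library. Young mice were 2 months old and old mice 22 to 24 months, all on the C57/Bl6 background, with no transgene, deletion or treatment named. The stem cells came from bone marrow, and each library pooled the tissue of 5 animals, so p-values describe the spread between pools and not between single animals. Old libraries carry the replicate numbers 3 to 9 and young libraries 1 to 4. The antibodies and gates of the sort are not given in the sources used here, and neither is the sex of the animals. Sorted marrow B cells, with 4 old and 5 young libraries that share no sample with the stem cells, served as a second cell type.

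HSCs sit at the top of the blood system: they renew themselves and feed progenitors that make red cells, platelets, myeloid cells and lymphocytes. In the marrow most of them rest outside the cell cycle, close to vessels and stromal cells that supply stem cell factor (the ligand of Kit) and CXCL12. With age the mouse marrow is known to hold more cells with the HSC surface phenotype, which repopulate less well per cell and yield fewer lymphocytes and more platelets and myeloid cells. In a bulk library, a change in the mix of cells within the gate and a change in RNA per cell cannot be told apart.

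The sorted cells carried HSC markers. Over the 23 cell types, 7 of 12 HSC markers were highest in the HSC libraries, among them Kit at a mean CPM (the count scaled to a common library total) of 345, Procr at 122, Hlf at 421 and Meis1 at 609 CPM. Mecom, at 396 CPM, ranked second behind kidney tubular cells. Fgd5 ranked 4, Ctnnal1 5, Cd34 10 and Ly6a 14 of the 23 cell types. Ly6a, at 203 CPM, lay below the median of 434 CPM over the other cell types. Total counts were 1337991 to 1974133 in young libraries and 1677125 to 3148348 in 5 old ones, but 16231229 in old replicate 3 and 13260757 in old replicate 5. The first principal component, 37.2% of the variance of log2 CPM, split the old libraries: old replicates 3 to 6 lay at 29.6 to 45.4, old replicates 7 to 9 at -5.23 to 2.26 and the young libraries at -44.3 to -28.5. The labels name no batch that would match this split, so results are also given without either set of old libraries, an alternative chosen after seeing the data. Without old replicates 3 to 6, only old replicates 7 to 9 remain and the deepest libraries are gone. A call lost in that fit therefore does not show that the change is absent. Young replicate 1 held Y-linked RNA (Ddx3y at 43.9 CPM, against at most 0.617 in the other 10 libraries), while Xist was present in all 11.

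Markers of mature blood cells also differed between the libraries. Summed neutrophil markers were 72.6 to 522 CPM in young libraries, 770 to 1375 CPM in old replicates 3 to 6 and 152 to 489 CPM in old replicates 7 to 9. Summed red cell markers were 354 to 2686, 2937 to 6674 and 1424 to 1863 CPM in the same 3 sets, and mast cell, basophil and eosinophil markers were 34.8 to 404, 257 to 1126 and 35.5 to 61.1 CPM. Monocyte and macrophage markers were 431 to 939, 1117 to 2087 and 576 to 875 CPM, and T and NK cell markers, a sum that includes Klrb1c, 96.8 to 141, 225 to 272 and 122 to 185 CPM. Old replicates 3 to 6 thus lay above the other libraries in the neutrophil, red cell, monocyte and T and NK cell sums, and young replicate 2 was the highest young library in these and in the mast cell sum. Plasma cell markers were 128 to 236 CPM in young libraries, 553 to 4058 CPM in old replicates 3 to 6 and 491 to 1225 CPM in old replicates 7 to 9. All 4 tested of the 10 plasma cell markers were higher in old cells: Ighm and Igkc, given with the lymphoid genes, the immunoglobulin joining chain Jchain (log2 fold change 2.66, SE 0.74, adjusted p = 0.0344) and the secretory cell factor Xbp1 (0.57, SE 0.17, adjusted p = 0.0426). The groups overlapped in Jchain and Xbp1, whose adjusted p values were 0.159 and 0.593 without old replicates 3 to 6 and which lost their calls in 5 and 7 of the 11 fits that left out 1 library. The other 6 were too low to test, with Mzb1, Tnfrsf17 and Sdc1 at most 0.617, 0.748 and 5.55 CPM in any library. Summed B cell markers spanned 63.6 to 139 CPM in young and 68.2 to 139 CPM in old libraries. The largest part was Cd79b, at 43.4 to 78.0 CPM. Vpreb3 reached 14.4 CPM and Pax5 8.45 CPM, and Cd79a was at most 1.02 CPM. The part of these cells in the results below was not tested. Values without old replicates 3 to 6 leave out the libraries with the highest neutrophil, red cell and monocyte sums. Old replicates 7 to 9 still lay above the young libraries in the plasma cell sum and in the megakaryocyte sum (745 to 909 against 602 to 664 CPM). The same held for the marrow endothelial sum (327 to 361 against 255 to 286 CPM). Of 6 tested marrow endothelial markers 2 were higher, against 5.31% of all genes. These were Ramp2, given below, and Kdr (log2 fold change 1.02, SE 0.22, adjusted p = 0.00973). Of the 2, 1 was called without old replicates 3 to 6.

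**Figure D1:**
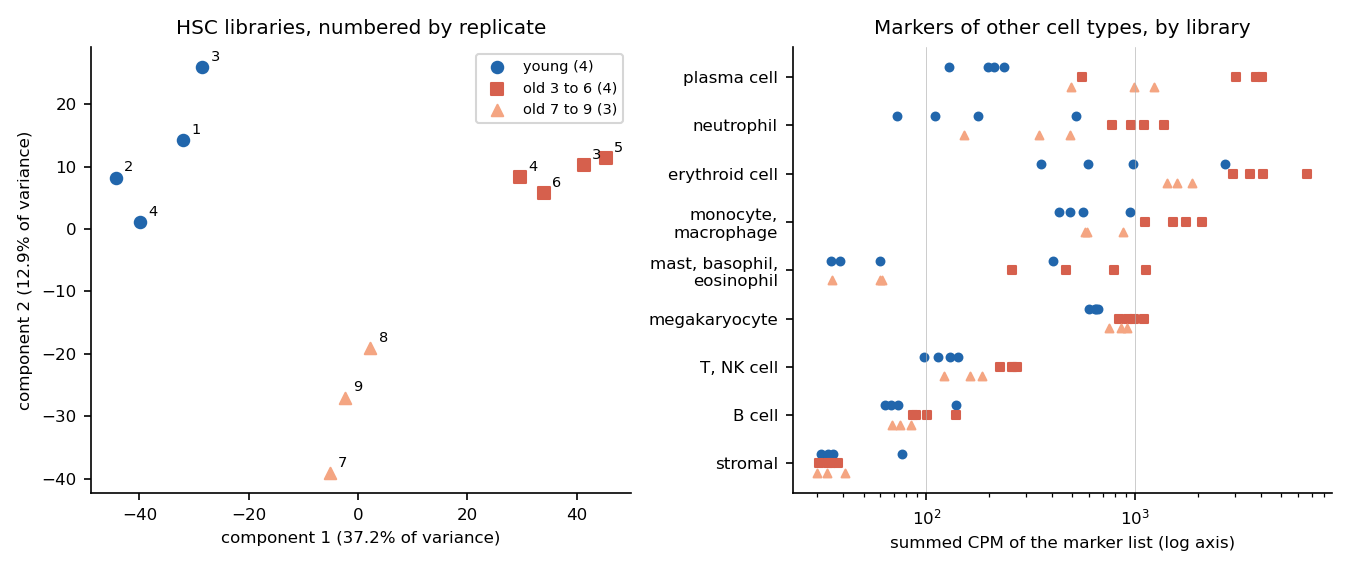
Left, each library by its scores on the first and second principal components of log2 CPM (37.2% and 12.9% of the variance), coloured as young, old 3 to 6 or old 7 to 9; right, summed CPM of marker genes of other cell types in each library, on a log axis. The old libraries form 2 separate sets on the first component, and old 3 to 6 are highest in neutrophil and red cell markers.

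Old and young stem cells differed at 1199 of 12584 genes tested (9.53%; edgeR's quasi-likelihood test, Benjamini-Hochberg adjusted p under 0.05): 668 genes (5.31%) were higher and 531 (4.22%) lower in old cells. The 15 largest changes in each direction were picked among called genes with no overlap between old and young libraries. They also had a mean of at least 20 CPM in the higher group. Their separation thus follows from the choice. Among them, the largest rises were in the metallothionein gene Mt2, the lectin gene Zg16, the matrix gene Matn4 and the nuclear receptor gene Rorb. The 15 rises also included the surface receptors Chrm3, Klrb1c and Gpr183 and, with smaller folds at higher levels, Mt1, Nupr1 and Clu. The genes with the largest falls included Vegfa, the melanocortin receptor gene Mc5r, GTPase-activating proteins and Cd34. In 806 of the called genes no old library overlapped a young one, against 7.78% of all tested genes without overlap (4.66% higher and 3.12% lower in old cells). The median log2 fold change over all tested genes was -0.0027. With a single library left out, 514 of the 1199 genes were called in all 11 fits, and the count of called genes fell to 762 without young replicate 1, 701 without young replicate 2 and 780 without old replicate 5. Genes named below kept their call in every such fit that tested them, unless the text says otherwise.

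Metallothioneins 1 and 2 are small cysteine-rich proteins that bind zinc and copper and are induced by metals, glucocorticoids and oxidative stress. Mt1 stood at 69.7, 80.1, 86.1 and 67.8 CPM in the 4 young libraries and at 497 to 632 CPM (median 543) in the 7 old ones. Its log2 fold change was 2.87 (SE 0.12, adjusted p = 1.42e-09), a rise of 7.31-fold. Mt2 was low in young cells, at 5.55, 1.44, 2.15 and 6.17 CPM, and reached 61.3 to 88.2 CPM (median 78.8) in old cells, a log2 fold change of 4.27 (SE 0.26, adjusted p = 7.3e-08). The groups were far apart for both genes. Nupr1 encodes a small chromatin-associated protein induced by amino acid shortage and endoplasmic reticulum stress. Its level was 112, 89.5, 102 and 108 CPM in young and 579 to 773 CPM (median 710) in old libraries, a log2 fold change of 2.74 (SE 0.12, adjusted p = 1.62e-09), again with no overlap.

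The 250 bases before the start of these 3 genes are shown because they carry the regulatory letters for which metallothionein and amino acid response genes are known. They come from RefSeq on the GRCm38.p6 build, read 5′ to 3′ on the gene's strand. Capitals in Mt1 and Mt2 mark matches to the metal response core TGCACNC or TGCGCNC on either strand, and in Nupr1 a match to TGATGNAA, letters of the amino acid response element. The windows are chr8:94178839-94179088 (plus strand) for Mt1, chr8:94172368-94172617 (plus strand) for Mt2 and chr7:126625471-126625720 (minus strand) for Nupr1.
Mt1: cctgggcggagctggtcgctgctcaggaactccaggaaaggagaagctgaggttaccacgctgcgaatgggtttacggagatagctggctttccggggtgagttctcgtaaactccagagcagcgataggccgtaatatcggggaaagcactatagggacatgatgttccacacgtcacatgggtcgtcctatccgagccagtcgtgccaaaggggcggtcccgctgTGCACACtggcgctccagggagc
Mt2: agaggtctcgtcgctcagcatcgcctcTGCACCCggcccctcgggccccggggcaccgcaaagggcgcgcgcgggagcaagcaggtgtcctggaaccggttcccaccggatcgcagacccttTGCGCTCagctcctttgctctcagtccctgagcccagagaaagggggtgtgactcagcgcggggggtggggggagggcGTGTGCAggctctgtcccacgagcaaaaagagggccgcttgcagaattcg
Nupr1: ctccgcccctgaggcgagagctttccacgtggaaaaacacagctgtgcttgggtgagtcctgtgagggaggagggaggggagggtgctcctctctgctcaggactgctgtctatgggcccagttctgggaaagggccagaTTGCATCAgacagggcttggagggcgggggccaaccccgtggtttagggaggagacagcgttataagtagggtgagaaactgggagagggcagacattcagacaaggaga
The Mt2 window held 3 matches to the metal response core and the Mt1 window 1. At least 1 match was found in 21.3% of all 27025 promoters of that length and at least 3 in 1.28%. The share with at least 3 was 2.18% among tested genes, 2.61% among higher and 2.43% among lower genes. Among tested genes with a promoter entry the share with at least 1 match was 26.3% of 499 genes higher in old cells, 31.9% of 370 genes lower and 30.4% of all 8981. Of the 15 largest rises 11 had an entry, and 4 of those held a match. Of the 15 largest falls 10 had an entry, and 4 of those held a match, Cd37 with 2. The TGATGNAA letters stood in 3.53% of all promoters and 1.92% of those of tested genes. They stood in 2.81% of those of the higher and 1.35% of those of the lower genes. These matches are descriptions of the letters and were not tested.

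Other genes with large rises encoded receptors, secreted proteins and a nuclear receptor. Rorb, an orphan nuclear receptor, stood at 7.57, 8.66, 9.68 and 9.25 CPM in young and 84.6 to 148 CPM (median 118) in old libraries, a log2 fold change of 3.79 (SE 0.21, adjusted p = 3.1e-08). Gpr183, a receptor for oxysterols that guides immune cells, was at 10.1, 11.5, 10.2 and 8.63 CPM in young and 71.8 to 115 CPM (median 94.1) in old libraries, a log2 fold change of 3.18 (SE 0.20). Clu, a secreted chaperone, was at 43.9, 47.6, 42.5 and 32.7 CPM in young and 207 to 300 CPM (median 254) in old libraries, a log2 fold change of 2.63 (SE 0.14). None of these 3 genes had an old library within the young range. Klrb1c, the gene of the NK1.1 antigen, rose from 14.6, 13, 9.14 and 11.1 CPM to 65.9 to 156 CPM (median 122), a log2 fold change of 3.32 (SE 0.24). Klrb1c was higher in HSCs, at a mean of 77.5 CPM, than in any of the other 22 cell types. Of 4 tested T and NK cell markers, Klrb1c and Trac were higher, against 5.31% of all genes. Trac was at most 1.44 CPM in young and 1.61 to 6.04 CPM in old libraries (log2 fold change 2.42, SE 0.66, adjusted p = 0.0323). It was not called in every fit that left out 1 library. Nkg7, at 38.7 to 104 CPM, did not pass (adjusted p = 0.442). Cd3e, Ncr1 and Il7r were too low to test, at most 1.44, 0.617 and 7.85 CPM. The part of T and NK cells in the Klrb1c value was not tested. Clca3a1, of a family of calcium-activated chloride channel regulators, was also highest in HSCs and rose from 35.3, 32.5, 21.5 and 28.4 CPM to 184 to 272 CPM (median 198), a log2 fold change of 2.79 (SE 0.16).

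The remaining members of the 15 largest rises had old means of 20.9 CPM (Tc2n) to 91.2 CPM (Plscr2). Chrm3, a muscarinic acetylcholine receptor, rose by a log2 fold change of 3.74 (SE 0.33), and Ramp2, which makes the calcitonin-like receptor respond to adrenomedullin, by 3.22 (SE 0.23). Plscr2, a phospholipid scramblase, rose by 2.99 (SE 0.18), the tetraspanin-like Tm4sf1 by 2.93 (SE 0.21) and Tc2n by 2.82 (SE 0.28). Matn4, a matrix protein that is known to restrain HSC proliferation, stood at 2.02, 0.722, 2.15 and 0.617 CPM in young and 14.7 to 35.3 CPM (median 19.8) in old libraries, a log2 fold change of 3.86 (SE 0.38). Zg16, a secreted lectin, was at 3.03, 2.16, 0 and 0 CPM in young and 17.1 to 30.2 CPM (median 27.0) in old libraries. Its log2 fold change of 4.24 (SE 0.46) was 5.29 without young replicate 1. All 15 genes were called with either set of old libraries left out, with a median log2 fold change of 3.28 without old replicates 7 to 9 and 3.03 without old replicates 3 to 6.

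The 15 largest falls were smaller, from a log2 fold change of -2.09 to -1.26. Vegfa, the vascular endothelial growth factor, stood at 13.6, 16.6, 40.9 and 11.1 CPM in young and 4.07 to 6.71 CPM (median 4.84) in old libraries, a log2 fold change of -2.09 (SE 0.32, adjusted p = 0.000686). Young replicate 3 was the highest library, and without it the log2 fold change of Vegfa was -1.49. Mc5r, a melanocortin receptor, fell from 242, 108, 142 and 159 CPM to 22.6 to 68.4 CPM (median 48.8), a log2 fold change of -1.79 (SE 0.25). Over the 23 cell types Mc5r was highest in HSCs. Rnase6, a secreted ribonuclease of myeloid cells, fell from 55.5, 51.2, 64.5 and 57.3 CPM to 12.1 to 24.2 CPM (median 19.4), a log2 fold change of -1.61 (SE 0.16). In each of the 3 genes every old library lay below every young one.

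The other falls included regulators of the cytoskeleton. Arhgap15, which switches off Rac, stood at 73.2, 120, 105 and 110 CPM in young and 33.5 to 39.4 CPM (median 37.6) in old libraries, a log2 fold change of -1.45 (SE 0.13, adjusted p = 3.3e-06). Its relative Arhgap30 fell by 1.48 on the log2 scale (SE 0.18), and Myh10, the heavy chain of non-muscle myosin IIB, by 1.43 (SE 0.21). Ebi3, a subunit shared by interleukins 27 and 35, changed by a log2 fold change of -1.36 (SE 0.21) and Slc22a3, an organic cation transporter, by -1.33 (SE 0.22). Gramd1b, which moves cholesterol from the plasma membrane, changed by -1.33 (SE 0.21). The adaptor gene Sh2d5 changed by -1.39 (SE 0.21) and the tetraspanin gene Cd37 by -1.26 (SE 0.17). The kinase gene Map3k12 changed by -1.36 (SE 0.32, adjusted p = 0.016), with an adjusted p of 0.089 without young replicate 4. Without old replicates 3 to 6, 13 of the 15 were called, and Map3k12 (adjusted p = 0.167) was among those that were not.

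**Figure D2:**
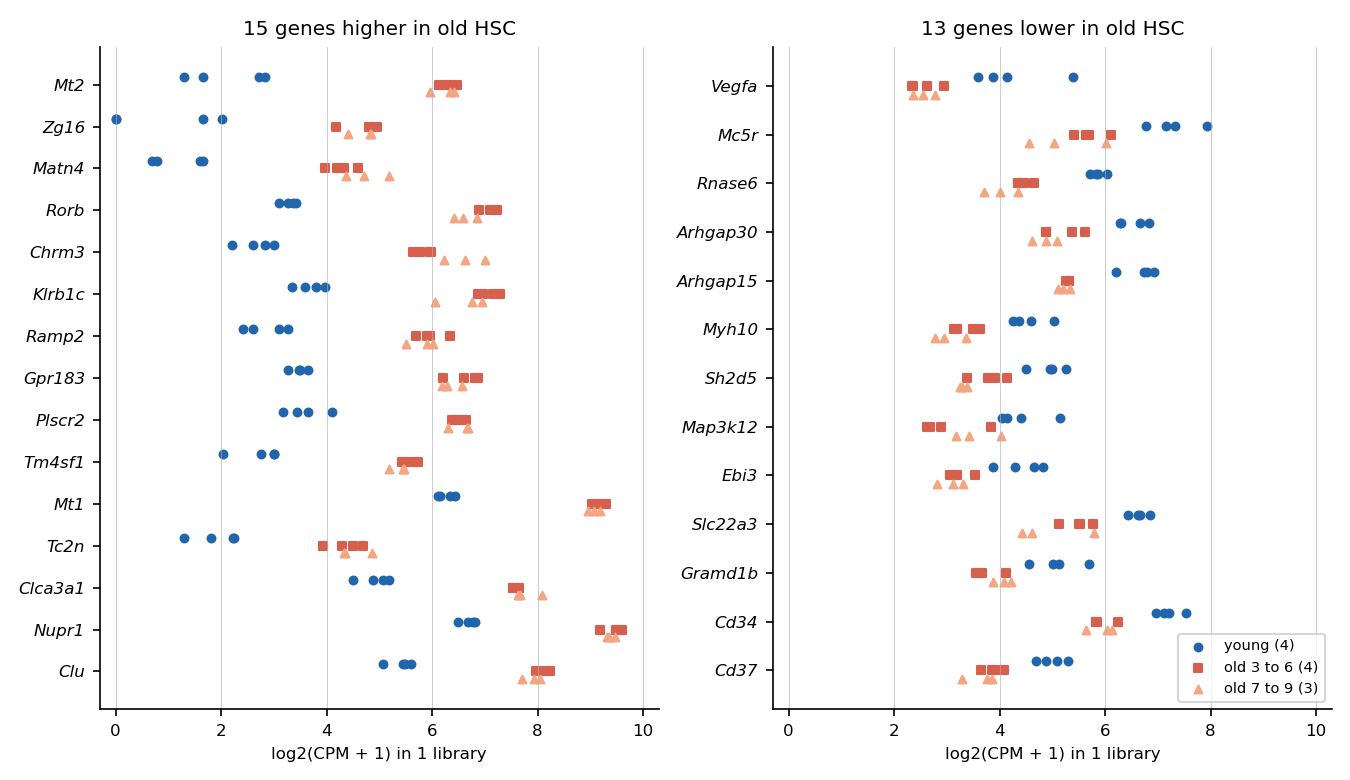
Log2(CPM + 1) of the 15 genes with the largest rises and 13 of the 15 with the largest falls in old HSCs, 1 point per library, coloured as young (4), old 3 to 6 (4) or old 7 to 9 (3). In all 28 genes the old points lie apart from the young ones, as the rule that picked these genes required. Both sets of old libraries lie on the same side for that reason.

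Surface antigens used to define HSCs moved in both directions, with 6 of 24 higher and 3 lower (background 5.31% and 4.22%), and a median log2 fold change of 0.29. The same background, 5.31% higher and 4.22% lower, applies to every list count below with all libraries. Without old replicates 3 to 6 it was 2.31% and 0.868%, and without old replicates 7 to 9 it was 10.2% and 11.2%. Procr (the endothelial protein C receptor, EPCR) stood at 82.8, 62.8, 94.7 and 76.5 CPM in young and 124 to 196 CPM (median 148) in old libraries, a log2 fold change of 0.92 (SE 0.14, adjusted p = 0.000692). Slamf1, which encodes CD150, was at 45.4, 41.1, 38.2 and 59.2 CPM in young and 61.0 to 84.2 CPM (median 72.6) in old libraries, a log2 fold change of 0.65 (SE 0.14). Both genes had no overlap between the groups. Ly6a, which encodes Sca-1, rose by 0.72 (SE 0.14). Cd38 rose by 1.95 (SE 0.24), from 9.09, 15.2, 14 and 8.02 CPM to 25.4 to 57.9 CPM (median 44.0). The adhesion receptor Alcam rose by 1.66 (SE 0.23), from 71.7, 71.4, 49.5 and 78.9 CPM to 116 to 271 CPM (median 235), and the netrin receptor Neo1 by 1.82 (SE 0.23). All old libraries were above all young ones in these 4 genes.

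Cd34, a sialomucin that is low on the longest-lived mouse HSCs, was at 124, 139, 185 and 146 CPM in young and 48.6 to 74.4 CPM (median 56.5) in old libraries, a log2 fold change of -1.29 (SE 0.13, adjusted p = 2.45e-05). Flt3, the receptor gained by multipotent progenitors as stem cells lose their potential, was at 7.57, 7.94, 15.6 and 17.3 CPM in young and 1.37 to 5.65 CPM (median 2.63) in old libraries, a log2 fold change of -1.87 (SE 0.36). Neither gene had overlapping groups. Cd27 was lower by a log2 fold change of -0.46 (SE 0.13, adjusted p = 0.0354), but its groups overlapped and its adjusted p was 0.0528 to 0.0998 without young replicate 1, 3 or 4 or old replicate 4, 5, 6 or 8. Kit, at 409, 429, 323 and 401 CPM in young and 279 to 355 CPM (median 332) in old libraries, did not pass the test (log2 fold change -0.27, SE 0.11, adjusted p = 0.115). Without old replicates 3 to 6, Cd34, Cd38, Neo1, Alcam and Procr were called, while the adjusted p was 0.118 for Flt3, 0.110 for Slamf1 and 0.0509 for Ly6a.

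Of 28 transcription factors of HSC identity, 1 was higher and 4 were lower, and the median log2 fold change was 0.01. The 5 called are 17.9% of the list, against 9.53% of all genes tested. Mecom, which keeps HSCs quiescent, stood at 463, 540, 340 and 485 CPM in young and 275 to 503 CPM (median 313) in old libraries, with overlapping groups (log2 fold change -0.33, SE 0.17, adjusted p = 0.237). Meis1 (-0.03, SE 0.09, adjusted p = 0.84) and Gata2 (0.14, SE 0.11, adjusted p = 0.447) did not pass the test either. Ikzf2, which encodes Helios, fell from 114, 144, 121 and 183 CPM to 51.9 to 78.8 CPM (median 65.8), a log2 fold change of -1.12 (SE 0.14, adjusted p = 0.000106). Mycn rose from 233, 151, 187 and 263 CPM to 289 to 496 CPM (median 369), a log2 fold change of 0.91 (SE 0.17, adjusted p = 0.00377). The groups did not overlap in Ikzf2 or Mycn. The calls of Hoxa9 (-0.50, SE 0.13), Hlf (-0.56, SE 0.15) and Etv6 (-0.39, SE 0.10) were lost with single libraries left out, with adjusted p values of 0.0671 without young replicate 3 and 0.0623 without young replicate 4 for Hoxa9. For Hlf they were 0.0541, 0.104 and 0.088 without young replicate 1, 2 or 4 and 0.0512 without old replicate 3, and for Etv6 0.0747 and 0.0887 without young replicate 1 or 2 and 0.0508, 0.0566 and 0.0501 without old replicate 3, 5 or 6. Without old replicates 3 to 6, Ikzf2 was the only one of the 5 still called, and the adjusted p of Mycn was 0.0627. Mycn stood at 369, 326 and 289 CPM in old replicates 7 to 9, still above the highest young library at 263 CPM.

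**Figure D3:**
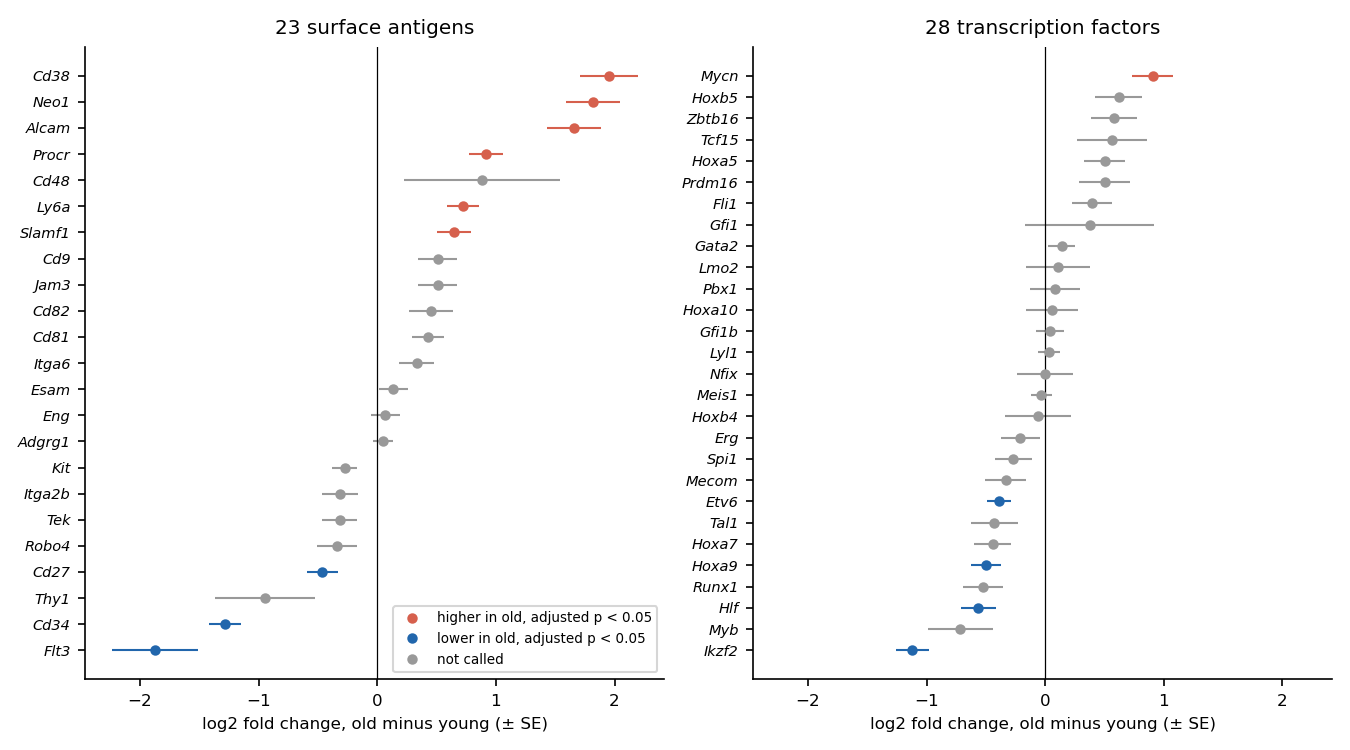
Log2 fold change, old minus young, with its standard error, for 23 of the 24 HSC surface antigens tested and all 28 HSC transcription factors; coloured points passed an adjusted p of 0.05 and grey points did not. Cd38, Neo1 and Alcam lie furthest above 0 and Flt3 and Cd34 furthest below it, while Meis1 and Gata2 lie close to 0.

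Most genes known from earlier work on aged mouse HSCs rose. Of 54 such genes, 45 were higher and 1 lower in old cells, with a median log2 fold change of 1.71. The list came from general knowledge of the field with results of these data in view, so its count is no independent evidence of its direction. Selp, which encodes the adhesion receptor P-selectin, stood at 32.8, 24.5, 29.0 and 27.7 CPM in young and 109 to 148 CPM (median 126) in old libraries, a log2 fold change of 2.11 (SE 0.13, adjusted p = 7.9e-08). Sult1a1, a sulfotransferase, was at 73.7, 67.8, 80.1 and 71.5 CPM in young and 270 to 449 CPM (median 376) in old libraries, a log2 fold change of 2.33 (SE 0.15). Clec1a, a C-type lectin, rose from 34.8, 25.3, 35.0 and 28.4 CPM to 122 to 182 CPM (median 151), a log2 fold change of 2.28 (SE 0.15). Old and young libraries were fully separate in all 46 called members. The exception in direction was Syk, a tyrosine kinase of immune receptor signalling, with a log2 fold change of -0.95 (SE 0.19). Members that did not pass included Cd9 (0.51, SE 0.16, adjusted p = 0.0634), Itga6 (0.33, SE 0.15, adjusted p = 0.169) and Maff (-0.37, SE 0.33, adjusted p = 0.499). Of the 46 called members, 44 were called with each library left out in turn and 40 without old replicates 3 to 6.

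Platelet and megakaryocyte genes were partly higher: 9 of 27 were higher and 1 lower, with a median log2 fold change of 0.32. Vwf, which encodes von Willebrand factor and marks platelet-biased HSCs, stood at 85.8, 58.4, 55.9 and 72.1 CPM in young and 138 to 237 CPM (median 185) in old libraries, a log2 fold change of 1.42 (SE 0.17, adjusted p = 6.98e-05). Itgb3, the β3 integrin of the fibrinogen receptor, was at 36.9, 46.2, 43.0 and 38.2 CPM in young and 82.1 to 139 CPM (median 99.3) in old libraries, a log2 fold change of 1.31 (SE 0.15). In both genes all old libraries lay above the young ones. Cavin2, which shapes caveolae, rose by 1.80 (SE 0.15), the platelet storage protein gene Mmrn1 by 0.75 (SE 0.11) and the podoplanin receptor gene Clec1b by 2.45 (SE 0.41). Itga2b, the partner of Itgb3, did not pass (-0.31, SE 0.16, adjusted p = 0.213). Clu and Selp, given above, belong to the same list. Of the 10 called members, 7 were called with each library left out in turn, and 7 without old replicates 3 to 6. Summed megakaryocyte markers, some of which are on this list too, were 602 to 664 CPM in young and 745 to 1103 CPM in old libraries.

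Genes of adhesion to the niche, a list that shares Selp, Itgb3, Tm4sf1 and Alcam with those above, held 7 higher and 2 lower of 32 members, with a median log2 fold change of 0.06. Jam2, a junctional adhesion molecule, rose from 10.1, 10.1, 15.6 and 13.6 CPM to 50.02 to 80.7 CPM (median 63.5), a log2 fold change of 2.42 (SE 0.18, adjusted p = 6.13e-07). Cd63, a tetraspanin of late endosomes, rose by 0.69 (SE 0.10) and the desmoglein gene Dsg2 by 1.78 (SE 0.30). Itga4, the α4 integrin that binds VCAM-1, was at 97.9, 108, 86.1 and 105 CPM in young and 54.3 to 75.8 CPM (median 67.9) in old libraries, a log2 fold change of -0.61 (SE 0.12, adjusted p = 0.0046). Jam2 and Itga4 showed no overlap between groups. Itga9, the α9 integrin, changed by -2.21 (SE 0.38) from at most 10.8 CPM, and its adjusted p was 0.0616 without old replicates 3 to 6. It was tested in 6 of the 11 fits that left out a library and called in all of those.

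Of 17 lymphoid genes tested, 3 were lower and 1 higher, with a median log2 fold change of -0.05. Satb1, a chromatin organiser needed for lymphoid potential, stood at 10.6, 21.6, 7.53 and 27.1 CPM in young and 3.23 to 6.83 CPM (median 4.60) in old libraries, a log2 fold change of -1.74 (SE 0.34, adjusted p = 0.00447). Ikzf1, which encodes Ikaros, was at 97.4, 120, 84.5 and 98.0 CPM in young and 53.7 to 77.0 CPM (median 66.2) in old libraries, a log2 fold change of -0.63 (SE 0.12). Flt3, given above, was the third. For none of the 3 did the groups overlap, but Ikzf1 (adjusted p = 0.104) and Flt3 lost their calls without old replicates 3 to 6. Ighm, the immunoglobulin μ heavy chain, was higher, at 54.5, 59.2, 13.4 and 35.8 CPM in young and 99.3 to 805 CPM (median 242) in old libraries, a log2 fold change of 3.12 (SE 0.59, adjusted p = 0.00377). The κ light chain Igkc rose with it, from 75.2, 61.3, 31.7 and 86.3 CPM to 265 to 3044 CPM (median 862), a log2 fold change of 4.57 (SE 0.74). Without old replicates 3 to 6 these values were 2.20 for Ighm and 3.27 for Igkc.

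Myeloid progenitor genes gave a median log2 fold change of 0.84, with 3 of 20 higher. Prtn3, the neutrophil protease 3 gene, stood at 178, 172, 197 and 176 CPM in young and 356 to 482 CPM (median 372) in old libraries, a log2 fold change of 1.14 (SE 0.12, adjusted p = 2.11e-05), with separate groups. Igsf6, a myeloid surface protein, rose by 2.44 (SE 0.54), but was 1.48 (adjusted p = 0.137) without old replicates 3 to 6. Elane, which encodes neutrophil elastase, was at 21.2, 89.5, 18.3 and 38.2 CPM in young and 39.1 to 333 CPM (median 143) in old libraries and did not pass (log2 fold change 1.99, SE 0.61, adjusted p = 0.0515). Mpo, the myeloperoxidase gene, gave 1.71 (SE 0.70, adjusted p = 0.131). Of the list, 9 of 19 were higher without old replicates 7 to 9, and 1 higher and 2 lower of 17 without old replicates 3 to 6, along with the neutrophil marker sums given above. The count was 6 without old replicate 8 or 9 and 5 without young replicate 2. Of 9 neutrophil markers 3 were higher, 8 without old replicate 9 or young replicate 2 and 6 without old replicate 7, but 1 without any one of old replicates 3 to 6 or young replicates 1, 3 and 4.

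Early red cell genes did not pass the test in any direction (0 of 15 by edgeR's quasi-likelihood test, median log2 fold change 0.17), with 6 higher and 1 lower at an unadjusted p under 0.05 and 3 higher by DESeq2. Gata1, the erythroid and megakaryocyte factor, gave -0.55 (SE 0.26, adjusted p = 0.183) and Klf1 0.49 (SE 0.49, adjusted p = 0.56). Leaving out old replicate 8 gave 4 higher genes, old replicate 7 gave 3, old replicate 9 gave 2 and young replicate 2 or 3 gave 1, while leaving out old replicate 3 gave 1 lower.

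Part of the DNA replication genes fell: 10 of 36 were lower in old cells, and 33 of 36 had a log2 fold change below 0, with a median of -0.39. Mcm3, a subunit of the replicative helicase, stood at 221, 229, 145 and 181 CPM in young and 99.6 to 135 CPM (median 111) in old libraries, a log2 fold change of -0.76 (SE 0.13, adjusted p = 0.00162). Cdt1, which loads that helicase, was at 52.5, 64.2, 44.1 and 42.5 CPM in young and 22.5 to 39.6 CPM (median 25.1) in old libraries, a log2 fold change of -0.89 (SE 0.17). Both genes kept the groups apart. Mcm7, of the same helicase as Mcm3, changed by -0.49 (SE 0.11). These genes were among the 4 called with each library left out in turn. The list's count was 4 without young replicate 1 and 5 without young replicate 2, and 4 of 36 were lower without old replicates 3 to 6.

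Mitosis genes did not pass the test: 26 of 29 were below 0, with a median log2 fold change of -0.20. None of the 29 was called by edgeR's quasi-likelihood test, 8 were lower at an unadjusted p under 0.05, and DESeq2 called 4 lower. Mki67, the proliferation antigen Ki-67, was at 140, 204, 127 and 131 CPM in young and 59.7 to 132 CPM (median 102) in old libraries (log2 fold change -0.55, SE 0.19, adjusted p = 0.0724). Top2a, a topoisomerase of dividing cells, gave -0.50 (SE 0.16, adjusted p = 0.0546). Leaving out old replicate 4 or young replicate 4 gave 2 lower genes, and leaving out old replicate 9 or young replicate 3 gave 1. Among 19 genes of the G1 phase and cyclin-dependent kinase inhibitors, 2 were higher and 2 lower. Cdkn2c, the inhibitor p18, rose from 8.08, 19.5, 12.4 and 8.63 CPM to 23.9 to 35.8 CPM (median 29.3), a log2 fold change of 1.36 (SE 0.22, adjusted p = 0.00105). Ccnd1, cyclin D1, rose by 0.69 (SE 0.14), and Rbl1, the pocket protein p107, changed by -0.95 (SE 0.18). The groups did not overlap in these 3 genes, and without old replicates 3 to 6 the adjusted p was 0.0737 for Ccnd1 and 0.084 for Rbl1. With young replicate 1 or 2 left out, 1 member was lower. Of 22 DNA repair genes, Brca2 (-0.90, adjusted p = 0.0366) and Chek1 (-0.67, adjusted p = 0.0374) were lower. The adjusted p of Brca2 was 0.0616 to 0.157 without any one of young replicates 1, 2 and 4 and old replicates 3 to 6, and that of Chek1 was 0.054 to 0.125 without young replicate 1, 2 or 4 or old replicate 4, 5, 6 or 8. The list's count was 0 without old replicate 4, 5 or 6 or young replicate 1, 2 or 4 and 1 without old replicate 3.

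Of 36 chromatin regulators, 8 fell and 1 rose, and 31 were below 0 (median log2 fold change -0.31). Within Polycomb repressive complex 2 the 2 alternative methyltransferase subunits moved apart. Ezh2 stood at 134, 183, 107 and 93.1 CPM in young and 61.2 to 88.0 CPM (median 72.6) in old libraries, a log2 fold change of -0.84 (SE 0.16, adjusted p = 0.00395). Ezh1 stood at 39.9, 50.5, 43.0 and 53.6 CPM in young and 79.8 to 98.0 CPM (median 93.1) in old libraries, a log2 fold change of 0.95 (SE 0.12, adjusted p = 0.000102). The groups were separate for each, in opposite directions. Hmga2, an architectural factor of fetal and young stem cells, was at 75.2, 77.2, 75.3 and 94.3 CPM in young and 36.2 to 57.7 CPM (median 41.6) in old libraries, a log2 fold change of -0.86 (SE 0.13). Dnmt3b, a de novo DNA methyltransferase, changed by -0.84 (SE 0.18), with an adjusted p of 0.127 without old replicates 3 to 6. Suz12, another PRC2 subunit, changed by -0.85 (SE 0.20, adjusted p = 0.0153), with an adjusted p of 0.0828 without young replicate 2. The count of lower genes was 3 without young replicate 2, 4 without old replicate 3 or 5, and 5 without old replicate 6 or young replicate 1 or 4.

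Some interferon-responsive genes rose. Of 35 interferon-stimulated genes, 10 were higher, though the list's median log2 fold change was 0.12. Igtp, an immunity-related GTPase, stood at 56.5, 50.5, 65.6 and 65.4 CPM in young and 112 to 167 CPM (median 155) in old libraries, a log2 fold change of 1.28 (SE 0.14, adjusted p = 3.66e-05). Iigp1, of the same family, was at 72.2, 73.6, 74.8 and 99.3 CPM in young and 158 to 233 CPM (median 189) in old libraries, a log2 fold change of 1.21 (SE 0.14). No old library was within the young range for either gene. Gbp2, a guanylate-binding protein, rose by 0.97 (SE 0.16). Without old replicates 3 to 6, 3 of the list were higher. The count was 5 without young replicate 1, 4 without young replicate 2 and 6 without young replicate 4.

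Of 10 MHC class II genes, which present extracellular antigen, 5 were higher and 1 lower, with a median log2 fold change of 0.93. H2-Aa stood at 53.5, 54.1, 67.2 and 38.8 CPM in young and 120 to 233 CPM (median 174) in old libraries, a log2 fold change of 1.68 (SE 0.18, adjusted p = 3.28e-05). H2-Ab1, its partner chain, rose by 1.33 (SE 0.14), H2-Eb1 by 1.66 (SE 0.21) and Cd74, the invariant chain, by 1.29 (SE 0.14). These 4 were separate between the groups and were called without either set of old libraries. H2-Ob, which dampens class II loading, was lower (-1.28, SE 0.30, adjusted p = 0.0148), with an adjusted p of 0.0552 without young replicate 2. Of 18 class I genes, 6 were higher and 1 lower (median log2 fold change 0.33). H2-T23 rose by 0.51 (SE 0.11) and H2-D1 by 0.47 (SE 0.10), and without old replicates 3 to 6 1 class I gene was higher. The class I count was 2 without young replicate 1 and 3 without young replicate 2, and the 1 lower gene, Tap2 (-0.59, adjusted p = 0.0312), had an adjusted p of 0.0524 to 0.0878 without young replicate 1, 2 or 3 or any one of old replicates 3 to 6. Class I genes are near-identical to each other, so reads may be split among them. Dendritic cells and macrophages are known for high class II levels. Of 4 tested dendritic cell markers, Clec9a, a receptor for dead cells, was higher, at 1.01, 2.89, 1.61 and 2.47 CPM in young and 7.11 to 13.7 CPM (median 8.48) in old libraries (log2 fold change 2.34, SE 0.35, adjusted p = 0.000609, and 2.39 without old replicates 3 to 6), and Flt3 was lower. The summed dendritic level of 370 to 408 CPM in young and 350 to 400 CPM in old libraries was mostly Tcf4 (245 to 323 CPM), and Itgax was at most 0.813 CPM in any library. The monocyte and macrophage sums are given above. The part of these cells in the class II values was not tested.

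Of 32 redox and stress genes, 9 were higher, with a median log2 fold change of 0.24. They included Mt1, Mt2 and Nupr1, given above, and without the metallothioneins 7 of 30 were higher. Gpx3, a secreted glutathione peroxidase, stood at 10.1, 10.8, 10.2 and 17.3 CPM in young and 33.7 to 68.2 CPM (median 53.9) in old libraries, a log2 fold change of 2.13 (SE 0.25, adjusted p = 6.24e-05). Gstm2, a glutathione transferase with close copies, rose by 1.75 (SE 0.23). Gpx3 and Gstm2 did not overlap between the groups. Prdx5, a peroxiredoxin, rose by 0.53 (SE 0.12), with an adjusted p of 0.226 without old replicates 3 to 6. Of 25 heat shock and unfolded protein response genes, 4 were higher (median log2 fold change 0.16). Asns, the asparagine synthetase gene and a target of the ATF4 pathway, was at 34.3, 34.6, 29.0 and 28.4 CPM in young and 54.5 to 76.8 CPM (median 58.8) in old libraries, a log2 fold change of 0.997 (SE 0.14, adjusted p = 0.000281). Trib3, another ATF4 target, rose by 1.10 (SE 0.25), but its adjusted p was 0.281 without old replicates 3 to 6. The count was 2 without old replicate 5 or young replicate 1 or 2, and 7 without old replicate 8.

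Of 75 oxidative phosphorylation genes 74 had a log2 fold change above 0, with a median of 0.17, and 2 were called (2.67% against 5.31% of all genes). Without old replicates 7 to 9, 13 of the 75 were higher. Without old replicates 3 to 6, 0 were called by edgeR's quasi-likelihood test and 0 had an unadjusted p under 0.05, and the median was 0.01. In glycolysis and the hypoxia response, 4 of 25 were higher and 1, Vegfa, was lower. Hk2, a hexokinase, stood at 68.2, 105, 105 and 69.7 CPM in young and 123 to 173 CPM (median 162) in old libraries, a log2 fold change of 0.83 (SE 0.15, adjusted p = 0.00264), with separate groups. Ldha, lactate dehydrogenase A, rose by 0.52 (SE 0.10), with an adjusted p of 0.0713 without old replicates 3 to 6, and the count of higher genes was 2 without young replicate 1, 2 or 4. Of 65 ribosomal protein genes 63 were above 0 (median 0.20) and 10 were higher, 18 without old replicate 7, but 1 without young replicate 1, 4 without old replicate 3, 2 without any one of old replicates 4 to 6, 5 without old replicate 9 and 0 without young replicate 2 or 4. Ribosomal protein genes have many near-identical pseudogenes, so their counts are uncertain.

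Of 25 genes of the TGF-β and BMP pathway, which restrain or release HSC cycling, 3 were higher and 2 lower (median log2 fold change 0.02). Bmpr1a, a BMP receptor, stood at 1.51, 2.89, 0.538 and 5.55 CPM in young and 13.7 to 25.0 CPM (median 20.5) in old libraries, a log2 fold change of 2.91 (SE 0.38, adjusted p = 0.000177), and 3.60 without young replicate 4. Id2, a target of BMP signalling that blocks E proteins, was at 17.2, 23.1, 11.8 and 21.0 CPM in young and 37.0 to 74.7 CPM (median 63.8) in old libraries, a log2 fold change of 1.66 (SE 0.25). Both genes had separate groups. Other targets of the pathway did not pass the test: Id1 was at 0.11 (SE 0.39, adjusted p = 0.882), Smad6 at -0.45 (SE 0.33, adjusted p = 0.406) and Smad7 at -0.43 (SE 0.35, adjusted p = 0.46). Bmp4, a ligand, rose by 2.07 (SE 0.31), and by 2.72 without young replicate 3. Tgfb1 fell from 29.3, 24.5, 38.7 and 16.0 CPM to 7.16 to 16.9 CPM (median 10.9), a log2 fold change of -1.30 (SE 0.27), with slight overlap and an adjusted p of 0.171 without old replicates 3 to 6. Smad5 was the other lower gene (-0.35, adjusted p = 0.0482), with an adjusted p of 0.0687 to 0.144 without young replicate 1, 2 or 4 or old replicate 3, 4, 5, 6 or 8.

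Cytokine and prostaglandin receptors held 7 higher of 36, with a median log2 fold change of 0.01. Ptger4, a receptor of prostaglandin E2, stood at 29.3, 35.4, 29.6 and 27.7 CPM in young and 51.9 to 68.2 CPM (median 61.4) in old libraries, a log2 fold change of 1.002 (SE 0.13, adjusted p = 0.000188). Osmr, the oncostatin M receptor, rose by 2.74 (SE 0.42) from at most 3.08 CPM in young libraries, and the growth hormone receptor Ghr by 1.03 (SE 0.18). Old and young libraries were separate in these 3 receptors. The count was 4 without young replicate 1. Of 20 secreted inflammatory factors, 4 were higher and 3 lower (median 0.85). Slpi, a protease inhibitor, rose by 2.34 (SE 0.47), the membrane protease Mmp14 by 1.68 (SE 0.33) and the neutrophil granule gene Lcn2 by 2.75 (SE 0.58). The groups overlapped in Mmp14 and in Lcn2, for which old replicate 9 was at 2.42 CPM and the highest young library at 2.69 CPM. Lcn2 is also on the neutrophil marker list, whose sum was highest in old replicates 3 to 6, and without those libraries it was too low to test. In that fit 3 of the 7 called factors, Slpi, Mmp14 and Il15, were still called. Il15 fell from 21.2, 27.4, 33.4 and 43.8 CPM to 12.9 to 20.8 CPM (median 16.1), a log2 fold change of -0.92 (SE 0.19). The call of the chemokine gene Cxcl2 rested on 1 library, with 2.52, 5.77, 118 and 1.85 CPM in young and 2.62 to 5.65 CPM (median 3.69) in old libraries. Its log2 fold change of -3.18 (SE 0.79) became 0.15 (adjusted p = 0.854) without young replicate 3.

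Among 24 immediate early genes, which dissociation of tissue can induce, 2 were higher and 1 lower (median log2 fold change 0.18). The 3 called are 12.5% of the list, against 9.53% of all genes tested. Klf2, a factor of quiescence, rose from 84.8, 77.2, 62.4 and 32.1 CPM to 90.4 to 225 CPM (median 198), a log2 fold change of 1.44 (SE 0.27, adjusted p = 0.00312), with separate groups. Fos (0.30, SE 0.28, adjusted p = 0.518) and Egr1 (0.15, SE 0.21, adjusted p = 0.692) did not pass. The count of higher genes was 5 without young replicate 3 and 1 without any one of young replicates 1, 2 and 4 or old replicates 4 to 6. Of 17 Notch and Wnt genes 2 were called, 11.8% of the list. Of these, the ligand gene Jag1 rose by 1.30 (SE 0.25, adjusted p = 0.00435), with an adjusted p of 0.0879 without old replicates 3 to 6. Of 37 autophagy and lysosome genes, 6 were higher and 1 lower. The cathepsin gene Ctsl rose by 0.66 (SE 0.12), and the count of higher genes was 3 without young replicate 1 and 2 without young replicate 2 or 4. Of 16 imprinted genes, 2 were higher and 2 lower. Ndn rose by 0.67 (SE 0.13) and Phlda2 changed by -0.75 (SE 0.15), with adjusted p values of 0.113 and 0.178 without old replicates 3 to 6.

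**Figure D4:**
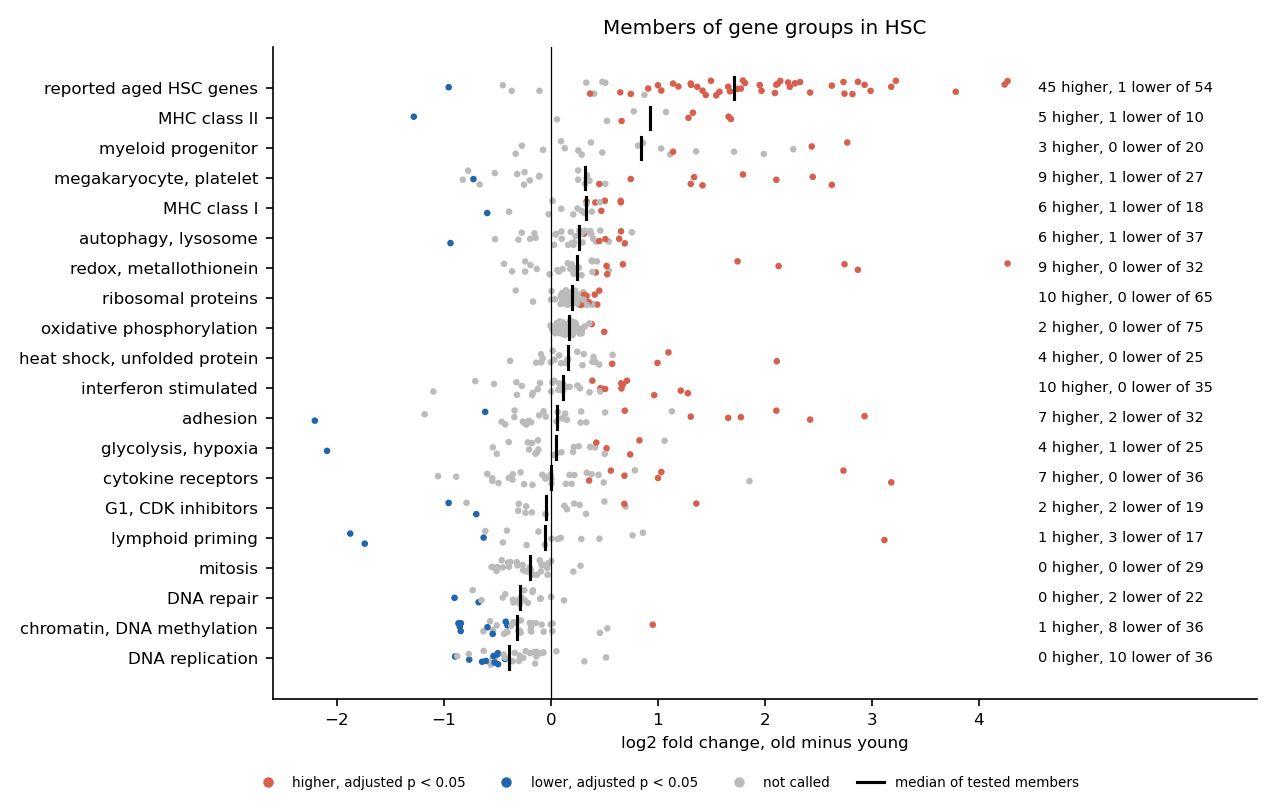
Log2 fold change, old minus young, of each tested member of 20 gene lists (points) with the list's median, and the number of members called higher and lower beside each list. The genes reported in aged HSCs lie furthest above 0 with 45 of 54 higher, while DNA replication and chromatin regulators lie mostly below 0.

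The groups differed in how far their counts rested on old replicates 3 to 6. Without those 4 libraries 272 of 11755 genes (2.31%) were higher and 102 (0.868%) lower, and without old replicates 7 to 9 1237 of 12096 (10.2%) were higher and 1359 (11.2%) lower. The genes reported in aged HSCs gave 46 higher of 54 without old replicates 7 to 9 and 40 higher of 53 without old replicates 3 to 6. Class II genes gave 5 and 4 of 9 in the same fits, and platelet genes 9 and 7 of 26. Myeloid progenitor genes gave 9 of 19 and 1 of 17, neutrophil markers 8 of 9 and 0 of 6, and red cell markers 7 of 8 and 0 of 8. Both counts of 0 are from edgeR's quasi-likelihood test, and at an unadjusted p under 0.05 they were 0 too. With all libraries no red cell marker was called by edgeR's quasi-likelihood test, with 6 higher at an unadjusted p under 0.05 and 0 by DESeq2. Members of the first 3 groups were thus called with either set of old libraries, and the neutrophil and red cell markers were not called without old replicates 3 to 6.

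**Figure D5:**
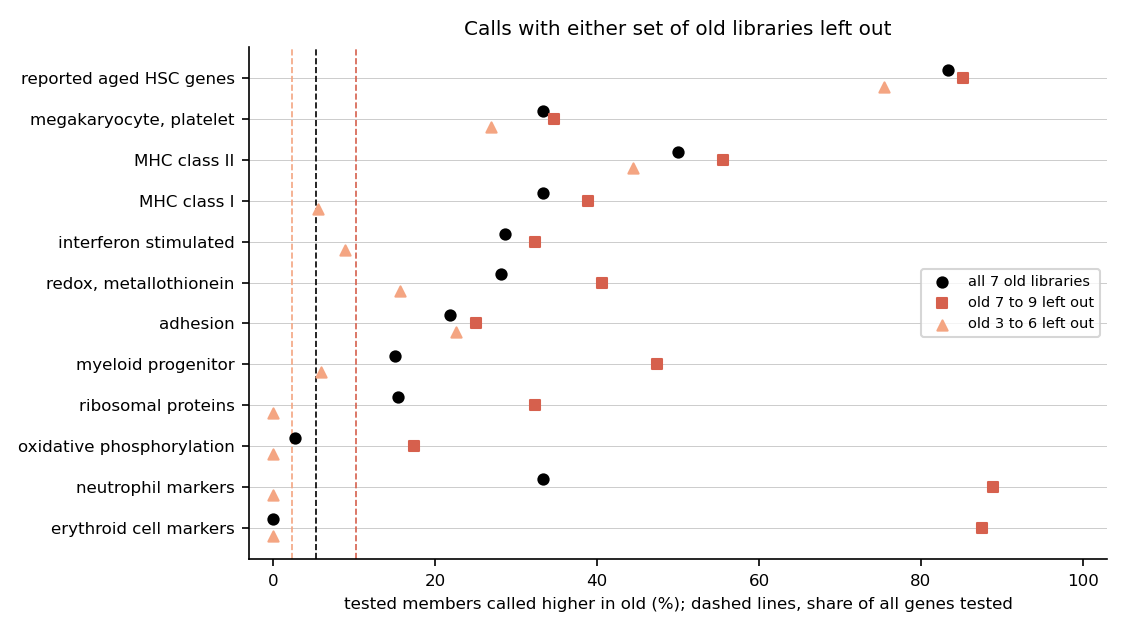
Percent of each list's tested members called higher in old HSCs with all 7 old libraries, without old 7 to 9 and without old 3 to 6; dashed lines give the share of all tested genes in the same 3 fits (5.31%, 10.2% and 2.31%). The genes reported in aged HSCs and class II genes stay far to the right of all 3 lines, while neutrophil and red cell markers drop to 0 without old 3 to 6.

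To see where stem cells aged differently from another marrow cell, the change in HSCs was set against the change in marrow B cells, as HSC change minus B cell change. Of 13394 genes tested, 473 (3.53%) differed, 214 with a higher and 259 with a lower value in HSCs. Of the 1186 genes called in HSCs that entered this fit, 286 also differed from B cells. Among the 30 genes named for their size of change, 12 of the 15 that rose and 9 of the 15 that fell differed. All of these differed in the direction of the HSC change. The 1186 and the 30 genes were picked by their change in these same HSC libraries. Their counts and the shared direction are thus no independent evidence of a difference. Mt1 went from a mean of 71.5 to 525 CPM in HSCs and from 63.4 to 81.1 CPM in B cells, a difference of 2.52 on the log2 scale (SE 0.16, adjusted p = 8.9e-10). Nupr1 went from 96.8 to 652 CPM in HSCs and from 5.63 to 7.31 CPM in B cells, a difference of 2.37 (SE 0.33). In B cells of either age both transcripts stayed below their level in old HSCs. Rnase6 went from 53.9 to 17.7 CPM in HSCs and from 95.5 to 109.9 CPM in B cells, a difference of -1.81 (SE 0.27).

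The largest differences from B cells were led by Matn4 and Rorb. Rorb went from 8.29 to 114 CPM in HSCs and from 4.22 to 2.58 CPM in B cells, a difference of 4.50 (SE 0.37, adjusted p = 5.9e-08). Matn4 differed by 7.31 (SE 1.53, adjusted p = 0.00909), but old B cells held no Matn4 count, a floor of 0.378 CPM for 3 counts over the 4 libraries, so this size depends on the count added before the log. Mt2 differed by 3.51 (SE 0.41) and Ramp2 by 3.41 (SE 0.32). Tnip3, an inhibitor of NF-κB signalling, went from 60.5 to 136 CPM in HSCs and from 1.07 to 0.116 CPM in B cells, a difference of 3.98 (SE 0.94) that was 3.08 (adjusted p = 0.125) without young B cell replicate 2 and 6.26 without old B cell replicate 4. On the other side, 5 genes were named whose change was higher in B cells than in HSCs. Tnfaip2 went from 101 to 156 CPM in HSCs and from 1.40 to 24.2 CPM in B cells, a difference of -3.50 (SE 0.39, adjusted p = 7.5e-06) and of -4.13 without young B cell replicate 4. Csf3r, the receptor of granulocyte colony-stimulating factor, went from 27.6 to 34.1 CPM in HSCs and from 0.529 to 10.9 CPM in B cells, a difference of -3.94 (SE 0.55). Rgs1, which dampens chemokine receptor signals, went from 311 to 135 CPM in HSCs and from 1.92 to 13.5 CPM in B cells, a difference of -3.90 (SE 0.66) and of -3.22 without young HSC replicate 3. The chemokine genes Cxcl2 (-4.67, SE 1.30) and Ccl5 (-3.43, SE 0.82) depended on single libraries: Cxcl2 was -1.37 (adjusted p = 0.372) without young HSC replicate 3. Its adjusted p was 0.0565 to 0.111 without any one of old HSC replicates 3, 4, 5, 6 and 8, young B cell replicates 1, 3, 4 and 5 and old B cell replicates 1 to 4. The adjusted p of Ccl5 was 0.0877 without young HSC replicate 2 and 0.0523 without old B cell replicate 4. Young B cell means were near the floor, at 0.529 CPM for Csf3r, 1.09 for Ccl5, 1.40 for Tnfaip2, 1.41 for Cxcl2 and 1.92 for Rgs1. So was the old B cell mean of Tnip3, at 0.116 CPM. The size of these differences is thus uncertain.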

How the data were processed

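RNA was measured by 3′ poly(A) sequencing of sorted cells in which a 10 bp molecular identifier and an index of 8 bp tagged each read, and sabre split the reads by sample, per the labels' protocols. STAR, featureCounts 2.0.1, GRCm38.p6 and mm10 are named in the submitters' processing notes. The authors deposited 1 table of counts per gene, not normalized; no source used here says whether identifiers were collapsed or strand was used, so overlapping and antisense genes cannot be told apart. Counts limit the precision of each value, and depth per library is in the opening.

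Groups followed the titles of the samples, also for old B cell replicate 1, whose other labels name fat cells. In R 4.3.3, edgeR 4.0.16 was run on the 11 HSC libraries (filterByExpr with a minimum count of 10 and total of 15, TMM, quasi-likelihood fit), with Benjamini-Hochberg adjustment over all genes tested at 0.05. The comparison with B cells was an interaction term over 20 libraries. CPM values were scaled by TMM within each of the 2 fits, so the levels given beside B cells differ slightly from the others, and levels over cell types used library totals. The standard error is the log2 fold change divided by the square root of the F statistic. On simulated counts the HSC test recovered 64% of genes changed 2-fold and 92% changed 4-fold of 200 changed among 12584, with 6.02% false calls. Replicates differed beyond sampling noise in each of 27 pairs. Named genes were the 15 largest changes in each direction among called genes with no overlap and a mean of at least 20 CPM in the higher group, leaving out Xist, Y-linked genes, unnamed gene models, pseudogenes, antisense genes and receptor segments; for B cells the 5 largest in each direction. From each list, up to 8 called members with the lowest adjusted p could be named; members that did not pass were chosen after their values were seen. Gene lists, members and this rule were chosen with earlier results of these data known. Alternatives were RLE scaling, no filter, DESeq2 1.42.0, a block on the replicate number, each library left out in turn, and sets of old libraries left out. Gene positions came from GENCODE M21, which matched 12393 of the 12584 genes, and promoters from RefSeq. Some genes counted in these lists are not reported here by name.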

Additional observations from a re-analysis of the deposited data

Results flagged for a closer look

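Some libraries lay far from the others of their group, judged by the gap of the highest or lowest library to its neighbour. This was seen in 8 of 192 groups of libraries examined. Chance gives about 1 in 20, so the number of such libraries is no more than chance alone would give. Clca3a1 was highest in old replicate 7 at 272 CPM, with the next library at 203. In the young group, Tal1, a master factor of blood formation, was lowest in replicate 3 at 84.5 CPM with the next at 141, and Cd82, a tetraspanin, was highest there at 15.1 CPM with the next at 11.6. Adgrg1, an adhesion receptor also known as GPR56, was lowest in young replicate 4 at 899 CPM, with the next at 1038. Young replicate 2 stood apart in 4 sums of markers: B cells at 139 CPM (next 72.8), mast cells, basophils and eosinophils at 404 CPM (next 59.8), marrow endothelium at 255 CPM (next 281, so lowest) and marrow stroma at 76.5 CPM (next 35.8).

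The change with age differed between HSCs and B cells in 10 named genes by the interaction test. On the log2 scale the difference was 7.31 for Matn4, 4.50 for Rorb, 3.98 for Tnip3, 3.51 for Mt2 and 3.41 for Ramp2. It was -4.67 for Cxcl2, -3.94 for Csf3r, -3.90 for Rgs1, -3.50 for Tnfaip2 and -3.43 for Ccl5. In these last genes, Tnip3 and Matn4 the size rests on B cell levels near the floor, as given above.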

How the results depend on the processing

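The counts of 1199 called genes, 668 higher and 531 lower, stayed within 1.5 times under RLE scaling (1195, 1177 of them shared), no filter (1435, 927 shared) and DESeq2 (1575, 1182 shared). The replicate numbers 3 and 4, the only ones shared by old and young, gave correlations of deviations of 0.167 and -0.0763. Unlike numbers gave 0.0166 (young 3 with old 4) and -0.0673 (young 4 with old 3). With 1 pair per number, it cannot be decided whether these samples shared more than a number. With the replicate number as a block 602 genes were called (354 higher and 248 lower, 346 shared). For the difference from B cells 155 were called (79 higher, 76 lower). The HSC age difference in these fits rests on old and young replicates 3 and 4 alone, as each other number occurs at 1 age. The block is thus a weak check, also where a gene loses its call. Leaving out 1 library gave 701 to 1484 called (456 to 755 higher, 245 to 729 lower). Young replicates 1, 2 and 4 and old replicates 3, 5 and 6 moved the lower count by over 1.5 times, to 301, 245, 328, 325, 293 and 353. Alternatives chosen after seeing the data gave 2596 without old replicates 7 to 9 (1237 higher, 1359 lower; 1101 shared), 374 without old replicates 3 to 6 (272 and 102; 341 shared) and 604 without old replicates 3 and 5 (393 and 211; 596 shared); the cause was not tested. The difference from B cells, 473 called, gave 292 to 565 with 1 library left out (125 to 282 higher, 167 to 314 lower), lowest in each without young HSC replicate 2, and 134 higher without young HSC replicate 1. It gave 787 with no filter (372 higher, 415 lower) and 330 higher by DESeq2. The log2 fold change of Cxcl2 was -3.57 to 0.15 with 1 library left out and reversed to 0.15 (adjusted p = 0.854) without young replicate 3. Under the block, Myh10 (adjusted p = 0.0694), Sh2d5 (0.182) and Gramd1b (0.0576) of the 30 named genes lost their calls.

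Depth limits genes near the floor: Zg16, Matn4, Osmr and Bmpr1a had 0 to 5.55 CPM in young libraries of 1337991 to 1974133 counts, so the size of their rise is less certain than that of Mt1 or Nupr1.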
